A study of Macaca fascicularis with 32 samples.

Results

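Immediate early genes are transcribed within minutes of a stimulus, without new protein synthesis, and 7 of them were followed here by symbol: FOS, FOSB, JUNB, EGR1, NR4A1, NR4A3 and ARC. They are 7 of the 22316 genes listed in the count matrices, and each had at least 1 UMI (unique molecular identifier, a count of 1 captured transcript) in each of the 6 libraries. Nuclei of cynomolgus macaques were taken from the midbrain's substantia nigra (SN), where dopamine neurons lie, and from their striatal targets, which are the putamen (PUT) and caudate nucleus (CN, labelled "Caudal nucleus"). Libraries marked PD model Parkinson's disease with an adeno-associated virus (AAV) vector combined with poly(ADP-ribose), as the series title describes it, and CT is the control. The labels used here give no age, dose, time point or control vector for either group.

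In neurons, calcium entry and cyclic AMP signalling act through CREB, SRF and MEF2 factors on the promoters of these genes. The products of FOS, FOSB and JUNB form AP-1 transcription factors, EGR1 is a zinc finger factor, NR4A1 and NR4A3 are orphan nuclear receptors, and ARC is a synaptic protein that regulates AMPA receptor traffic. In the striatum they are widely used as marks of recent activity, and dopamine receptor signalling is among their best known regulators. Their transcripts are short-lived, so nuclear RNA of these genes also responds to handling and to the interval before tissue is frozen.

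Each region and treatment was deposited as 1 matrix, although the labels list 8 samples for each striatal control group and 4 for each of the other groups. No map from nuclei to samples was found in the files, so every matrix was counted as 1 library, there is no replicate check, and treatment, animals and library cannot be told apart. No difference between CT and PD was tested, and every interval given here is a 95% interval for counting error only. Of 56659 barcodes, 52639 nuclei were retained, with a median of 1170 to 3013 UMIs per nucleus in a library, and 386 barcode sequences occurred in more than 1 library. Classes of nuclei were named from fixed marker genes, with the 7 genes and the other lists left out of the clustering, and are called "-like" for that reason. The markers matched the labelled regions: dopaminergic neuron-like nuclei were found in the SN libraries (355 in CT, 277 in PD), and spiny projection neuron (SPN)-like nuclei in the putamen and caudate libraries. SN glutamatergic neuron-like nuclei, 7 in each library, were too few to compare.

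The 7 genes were rare transcripts: 3192 of their UMIs were counted in all retained nuclei, of which 2307 lay in the 10 neuron classes compared. Their summed level, in UMIs per 1000000 UMIs of a class and library (CPM), was highest among the compared neuron classes in the interneuron-like nuclei of the CT libraries, at 81.6 CPM in the caudate (interval 67.6 to 97.8) and 63.8 CPM in the putamen (48.9 to 81.8). SN dopaminergic neuron-like nuclei of CT followed at 47.8 CPM (42.1 to 54.0). The intervals of neighbours in this order overlapped, including that of caudate eccentric SPN-like nuclei of PD (45.8 CPM, 33.8 to 60.7). Direct and indirect SPN-like nuclei lay between 14.3 and 28.0 CPM in the 4 striatal libraries, and SN GABAergic neuron-like nuclei at 22.6 CPM in CT and 14.2 CPM in PD. Oligodendrocyte-like nuclei, which serve as a reference, had 4.94 CPM in SN CT and 4.06 CPM in SN PD, and 14.7 and 12.7 CPM in the putamen. In the caudate they were at 18.9 CPM in CT and 7.46 CPM in PD (32 and 30 UMIs, 2.53-fold lower in PD, 1.49 to 4.32). EGR1 gave 36 of their 69 UMIs in putamen CT and 30 of 46 in putamen PD. EGR1 in putamen direct SPN-like nuclei, at 7.18 CPM in CT and 8.36 CPM in PD, was thus not clearly above this reference. In putamen indirect SPN-like nuclei it was at 10.8 CPM in CT, above the reference, and at 7.50 CPM in PD, not above it. The part of free RNA in these EGR1 counts was not tested. Oligodendrocyte precursor-like, astrocyte-like and microglia- or macrophage-like nuclei held 1 to 14 member UMIs per library, so their levels, from 6.53 to 55.6 CPM, have wide intervals.

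**Figure D1:**
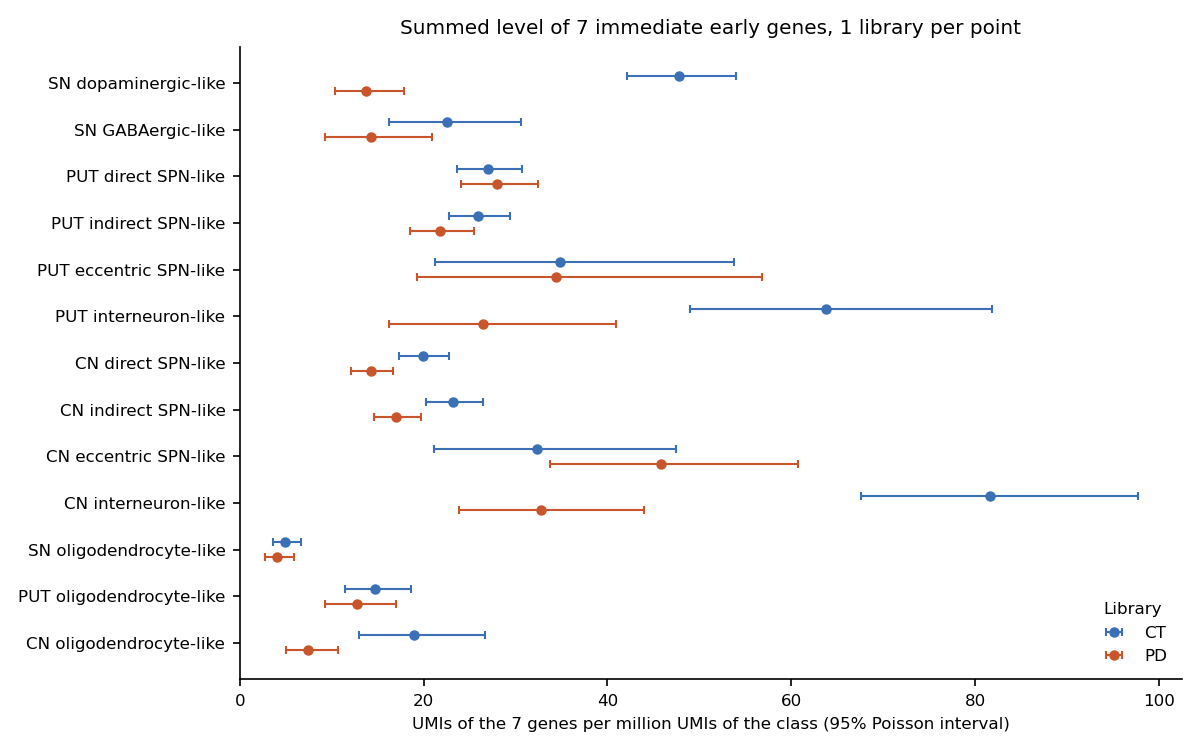
Summed level of the 7 genes (x axis, CPM) for each neuron-like class and for oligodendrocyte-like nuclei (y axis), with CT in blue and PD in red-brown; a point is 1 library and a bar its 95% Poisson interval. The CT and PD intervals are apart in SN dopaminergic neuron-like nuclei (47.8 and 13.7 CPM) in the interneuron-like nuclei of both striatal regions, and in direct SPN-like, indirect SPN-like and oligodendrocyte-like nuclei of the caudate.

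The genes differed in where they were high. FOS, the founding AP-1 subunit, was highest in caudate interneuron-like nuclei of CT (29.1 CPM), followed by SN dopaminergic neuron-like (10.7 CPM) and putamen interneuron-like nuclei of CT (9.26 CPM). In direct and indirect SPN-like nuclei FOS lay between 0.107 and 1.68 CPM in all 4 striatal libraries. FOSB, whose stable splice product accumulates in the striatum, was distributed differently: 7.28 to 8.80 CPM in the putamen SPN-like nuclei of both pathways and 2.69 to 5.10 CPM in those of the caudate and 6.18 CPM (6 UMIs) in putamen interneuron-like nuclei of CT, against 0.752 CPM in SN dopaminergic neuron-like nuclei of CT and 0 of 277 nuclei in PD, which allows a share of nuclei with a UMI of up to 1.08% (3 counts of the total). EGR1 was spread over the striatal classes, from 1.32 CPM in putamen interneuron-like nuclei of PD to 18.4 CPM (8 UMIs) in putamen eccentric SPN-like nuclei of PD. The oligodendrocyte-like reference of the putamen held EGR1 at about the level of direct SPN-like nuclei. NR4A1 and NR4A3 were the leading members in SN dopaminergic neuron-like nuclei of CT, at 15.4 and 17.9 CPM, and were as high in interneuron-like nuclei of CT: NR4A1 at 21.6 CPM in putamen and 18.0 CPM in caudate, NR4A3 at 19.6 and 18.7 CPM. JUNB, the partner of FOS in AP-1, was close to undetected, with 14 UMIs over all 10 comparisons, and ARC had 70. No ARC UMI was found in the 355 CT or 277 PD dopaminergic neuron-like nuclei, which allows shares of nuclei with a UMI of up to 0.845% and 1.08%.

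**Figure D2:**
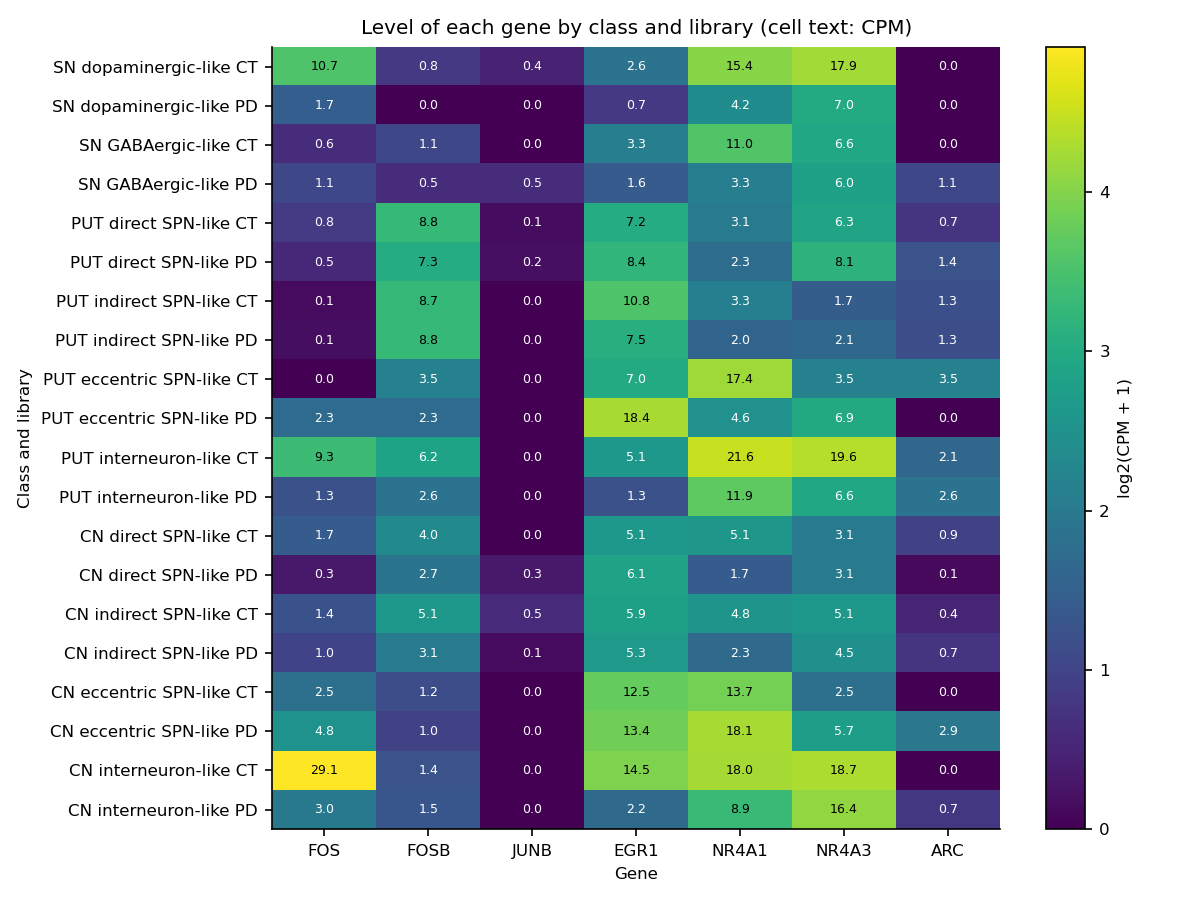
Level of each gene (columns) in each class and library (rows), coloured by log2(CPM + 1) with the CPM written in the cell. FOS is brightest in CN interneuron-like nuclei of CT, FOSB in the SPN-like rows of PUT, and JUNB is near 0 throughout.

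In SN dopaminergic neuron-like nuclei, the cells lost in Parkinson's disease, the 7 genes together were 3.48-fold lower in the PD library than in CT (interval 2.59 to 4.75), with 254 UMIs in CT and 55 in PD. FOS had 57 UMIs in CT and 7 in PD, or 10.7 against 1.75 CPM, a 6.13-fold lower level in PD (2.79 to 15.9). NR4A1, which is known as NUR77 and is regulated by dopamine, had 82 UMIs in CT and 17 in PD, 15.4 against 4.25 CPM, and was 3.63-fold lower (2.14 to 6.54). NR4A3 had 95 and 28 UMIs, 17.9 against 6.99 CPM, and was 2.56-fold lower (1.66 to 4.05). The 3 members with at least 50 UMIs were all at least 2-fold lower in PD, against 1.85% of the 10712 genes that reached this minimum and 3.45% of the 4497 genes with 50 to 200 UMIs. None was 2-fold higher, against 2.04% of genes, or 3.49% of those with 50 to 200 UMIs. EGR1 was counted 14 times in CT and 3 times in PD, FOSB 4 and 0 times and JUNB 2 and 0 times, too few for a fold that excludes no difference.

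The lower level was seen as fewer nuclei with a transcript. A UMI of any member was found in 38.6% of CT and 12.6% of PD dopaminergic neuron-like nuclei, at median depths of 14297 and 14176 UMIs. With each nucleus thinned to 2000 UMIs, which left 350 and 273 nuclei, the shares were 8.29% and 1.47%. In oligodendrocyte-like nuclei of the same libraries, the low reference for free RNA, the shares were 0.678% and 0.493% at medians of 1156 and 1075 UMIs. After thinning they were 0.662% in CT and 0 of 547 nuclei in PD, which allows a share of nuclei with a UMI of up to 0.548%. FOS was found in 51 of 355 CT nuclei (14.4%, interval 10.9 to 18.5%) and in 6 of 277 PD nuclei (2.17%, 0.799 to 4.65%). NR4A1 was found in 17.7% and 4.69% of nuclei and NR4A3 in 16.9% and 6.86%, again with intervals that do not overlap. Nuclei with 3 or more member UMIs were 26 of 355 in CT and 5 of 277 in PD, and those with 2 or more different members 46 and 3.

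CT and PD dopaminergic neuron-like nuclei lay largely in different sub-clusters. Of 355 CT nuclei, 164 were in the largest sub-cluster and 105 in that numbered 16.2, and of 277 PD nuclei, 102, 63 and 53 were in 16.1, 16.3 and 16.4. No PD nucleus lay in 16.2. In the largest one the members were at 65.2 CPM in CT and 22.3 CPM in the 31 PD nuclei (ratio of PD to CT 0.343, interval 0.161 to 0.646). In 16.1, with 52 CT and 102 PD nuclei, they were at 26.8 and 12.2 CPM (0.456, 0.229 to 0.914), and in 16.5, with 19 and 28 nuclei, at 87.3 and 25.2 CPM (0.289, 0.117 to 0.647). In 16.3, with 12 CT and 63 PD nuclei, they were at 7.04 and 6.47 CPM, on 1 and 5 UMIs. The ratio over the 2 with at least 20 nuclei in both libraries was 0.381, against 0.287 for the whole class. Without 16.2 it was 0.238. The fixed dopaminergic markers summed to 6332 CPM in CT and 6023 CPM in PD, with 7 of 13 higher in PD. Marker lists of glia were also near equal or slightly lower in PD: oligodendrocyte markers 665 and 568 CPM (1 of 12 higher in PD) and microglia or macrophage markers 71.5 and 57.4 CPM (3 of 14 higher, P2RY12 at 0 in CT and AIF1 at 0 in PD). Their part in the result was not tested.

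SN GABAergic neuron-like nuclei gave less to count. The members summed to 41 UMIs in 188 CT nuclei and 26 in 173 PD nuclei, 22.6 against 14.2 CPM, a difference within counting error (PD to CT ratio 0.631, 0.370 to 1.06). NR4A1 alone stood apart, with 20 UMIs in CT and 6 in PD, 11.0 against 3.28 CPM and 3.35-fold lower (1.30 to 10.2). NR4A3 was counted 12 and 11 times, and FOS 1 time in CT and 2 times in PD. No member reached the minimum of 50 UMIs in these nuclei, at which 1.39% of genes were 2-fold lower in PD and 1.11% higher. The fixed dopaminergic markers, at 280 CPM in CT and 164 CPM in PD, moved in the same direction in this class, and their part in the result was not tested.

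In the putamen, the SPN-like nuclei showed little difference between the libraries. These GABAergic projection neurons carry D1 receptors in the direct pathway and D2 receptors in the indirect pathway. Direct SPN-like nuclei had 233 member UMIs in 1658 CT nuclei and 181 in 1371 PD nuclei, 27.0 and 28.0 CPM (ratio 1.04, 0.851 to 1.27). FOSB was at 8.80 CPM in CT and 7.28 CPM in PD, EGR1 at 7.18 and 8.36 CPM, and NR4A3 at 6.25 and 8.05 CPM, each interval of the ratio including 1. None of these 3 members with at least 50 UMIs was 2-fold lower or higher, against 2.56% and 1.69% of all genes so compared, or 5.33% and 3.72% of those with 50 to 200 UMIs. Indirect SPN-like nuclei had 242 and 154 UMIs, 25.9 and 21.8 CPM (0.840, 0.682 to 1.03). There, EGR1 was counted 101 times in CT and 53 times in PD, 10.8 against 7.50 CPM, and was 1.44-fold lower (1.02 to 2.05), while FOSB was at 8.68 and 8.77 CPM (1.01, 0.714 to 1.42). Of its 2 members with at least 50 UMIs neither was past 2-fold in either direction, against 2.31% lower and 1.87% higher among all genes (5.07% and 4.53% of those with 50 to 200 UMIs). NR4A3 was higher in direct than in indirect SPN-like nuclei of both putamen libraries, at 6.25 (4.70 to 8.16) against 1.71 CPM (0.980 to 2.78) in CT and 8.05 (6.01 to 10.6) against 2.12 CPM (1.19 to 3.50) in PD. CT and PD nuclei lay mostly in different sub-clusters of the same parent clusters: 1309 CT and 26 PD direct SPN-like nuclei in one and 14 and 961 in another, and 1478 and 45 indirect SPN-like nuclei in one and 26 and 1099 in another. Within parent clusters the ratios were 1.04 and 0.825.

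Caudate SPN-like nuclei had lower summed levels in PD, as did the caudate oligodendrocyte-like nuclei that serve as a reference (ratio 0.395, 0.232 to 0.671). The reference nuclei of CT and PD lay mostly in different parent clusters. Sub-cluster 1.0 held 1087 CT and 103 PD caudate nuclei, and sub-cluster 2.0 held 109 and 2666. In CT this reference, at 18.9 CPM, was not low: direct and indirect SPN-like nuclei were at 19.9 and 23.2 CPM. In PD it was at 7.46 CPM, against 14.3 and 17.0 CPM. Direct SPN-like nuclei had 213 member UMIs in 2419 CT nuclei and 159 in 1915 PD nuclei, 19.9 and 14.3 CPM (ratio 0.716, 0.579 to 0.884). Indirect SPN-like nuclei had 223 and 173 UMIs, 23.2 and 17.0 CPM (0.731, 0.596 to 0.896). The median gene was itself lower in PD in these 2 comparisons, by 0.141 and 0.149 on the log2 scale, and relative to it the ratios were 0.790 and 0.811. NR4A1 had 54 UMIs in direct SPN-like nuclei of CT and 19 in PD, 5.05 against 1.70 CPM (2.96-fold lower, 1.73 to 5.29), and 46 and 23 in indirect, 4.79 against 2.26 CPM (2.12-fold lower, 1.26 to 3.67). It was the only one of 4 members with at least 50 UMIs to be 2-fold lower in either pathway, against 3.89% of all genes in direct and 3.93% in indirect SPN-like nuclei, and against 9.47% and 9.01% of the genes with 50 to 200 UMIs. No member was 2-fold higher, against 1.19% and 1.18% of all genes and 2.37% and 2.3% of those with 50 to 200 UMIs. Among the other members of direct SPN-like nuclei, FOS went from 18 UMIs in CT to 3 in PD (6.25-fold lower, 1.83 to 33.1) and ARC from 10 to 1, while EGR1 had 55 and 68 and NR4A3 33 and 35. The 18 FOS UMIs came from 11 nuclei, 1 of which held 6. In indirect SPN-like nuclei FOSB had 49 and 32 UMIs (1.62-fold lower, 1.02 to 2.62), and EGR1 57 and 54. PD nuclei were deeper here, with medians of 5413 against 4172 UMIs in direct and 5511 against 4142 in indirect SPN-like nuclei, and oligodendrocyte markers were lower in PD (548 and 381 CPM, 503 and 370 CPM). Their part in the result, and that of the lower reference level, was not tested.

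At full depth, at which PD nuclei were deeper, the share of caudate nuclei with any member UMI hardly differed. It was 7.28% in CT and 7.05% in PD for direct, and 7.62% and 8.35% for indirect SPN-like nuclei. With nuclei thinned to 2000 UMIs the shares were lower in PD, at 3.39% in CT and 2.61% in PD for direct, and 4.40% and 2.88% for indirect SPN-like nuclei. Most CT and PD nuclei of these classes lay in different sub-clusters of the same parent clusters, such as 1884 CT and 58 PD direct SPN-like nuclei in sub-cluster 0.0 and 25 and 1411 in 0.2. Within parent clusters, the ratio of PD to CT was 0.705 for direct and 0.695 for indirect SPN-like nuclei. Within sub-clusters with at least 20 nuclei in both libraries it was 0.283 and 0.662. The first value leans on sub-cluster 11.1, where 32 CT nuclei held 20 member UMIs (122 CPM, 74.7 to 189), 12 of them NR4A1, and 421 PD nuclei held 47 (ratio 0.155, 0.0901 to 0.276). In 0.0 and 0.2 the library with fewer nuclei held 2 and 1 UMIs.

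**Figure D3:**
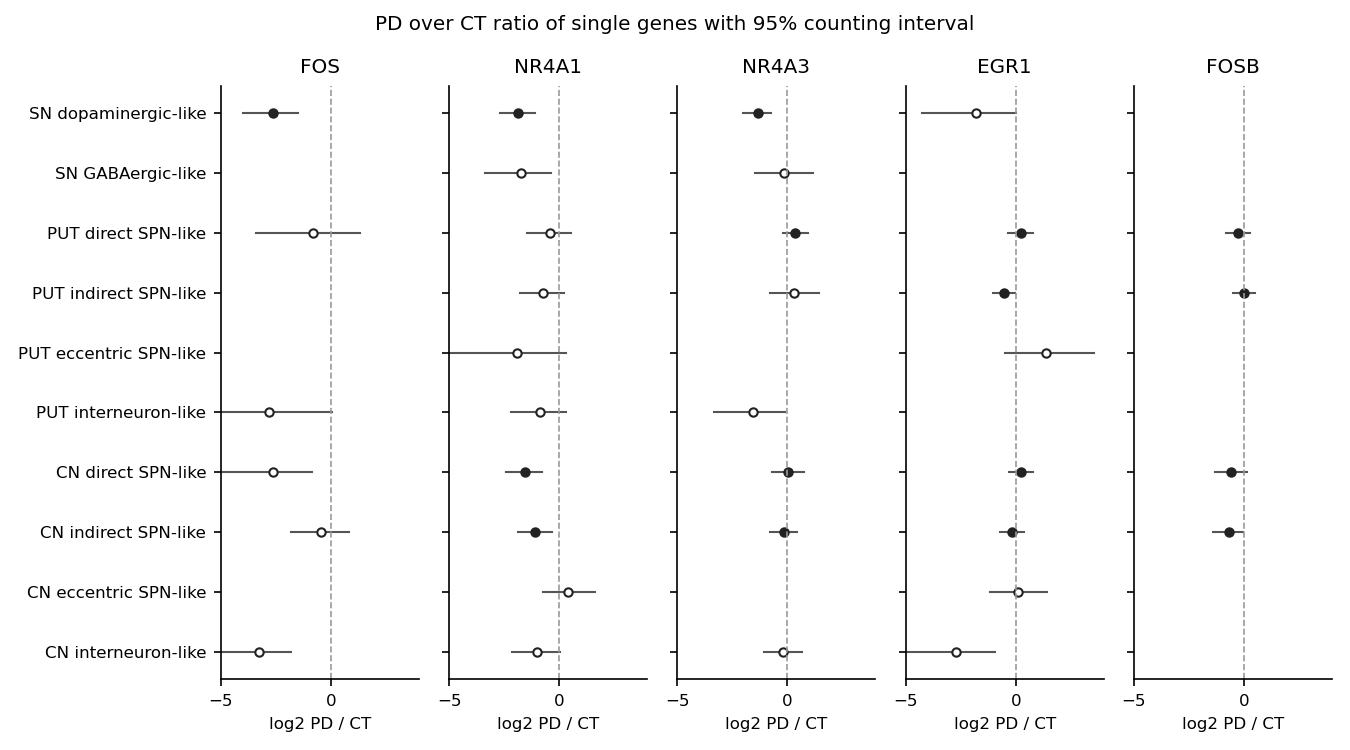
PD over CT ratio on a log2 scale (x axis) for 5 genes (panels) in 10 classes (y axis), with 95% counting intervals, cut at the axis limits; filled points have at least 50 UMIs over both libraries, open points 10 to 49, and classes with fewer are left blank. NR4A1 lies left of 0 in 9 of 10 classes.

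Eccentric SPN-like nuclei, a less common SPN type, had about equal levels in both putamen libraries and a higher value in caudate PD, within counting error. In the putamen the members were at 34.8 CPM in 120 CT nuclei and 34.4 CPM in 105 PD nuclei (20 and 15 UMIs; ratio 0.989, 0.471 to 2.03). In the caudate they were at 32.4 CPM in 209 CT nuclei and 45.8 CPM in 201 PD nuclei (26 and 48 UMIs; 1.42, 0.861 to 2.38), with a UMI in 12.4% and 20.9% of nuclei at median depths of 3694 and 4894 UMIs. NR4A1 had 11 UMIs in CT and 19 in PD in this caudate class, the only comparison of 10 in which its ratio was above 1. In the putamen NR4A1 had 10 and 2 UMIs and EGR1 4 and 8. CT and PD nuclei of this class lay mostly in separate sub-clusters, with 190 CT and 4 PD caudate nuclei in one and 10 and 195 in another, and 100 and 10 putamen nuclei in one and 0 and 76 in another. No member reached 50 UMIs in either region, the minimum at which 1.78% of putamen genes were 2-fold lower in PD and 1.78% higher, and 2.76% and 1.51% of caudate genes. A group of caudate SPN-like nuclei that was neither direct nor indirect by its markers (64 nuclei in CT, 162 in PD) held high levels in CT: 138 CPM (102 to 184) against 44.6 CPM (33.0 to 59.0) in PD, with FOS counted 11 and 3 times. FOSL2, NR4A3 and HOMER1 were among the 10 genes that led this group, so its high level is no independent finding, although the members were not used to cluster, and the group was chosen after its values were seen.

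Interneuron-like nuclei held the highest summed levels in CT among the compared classes, and lower ones in PD in both regions. In the putamen 62 UMIs were counted in 221 CT nuclei and 20 in 167 PD nuclei, 63.8 and 26.5 CPM (2.41-fold lower, 1.44 to 4.21). In the caudate 118 UMIs were counted in 451 CT nuclei and 44 in 325 PD nuclei, 81.6 and 32.7 CPM (2.49-fold lower, 1.75 to 3.61). FOS in caudate interneuron-like nuclei went from 42 UMIs in CT to 4 in PD, 29.1 against 2.98 CPM (9.76-fold lower, 3.54 to 37.5), and EGR1 from 21 to 3, 14.5 against 2.23 CPM (6.51-fold lower, 1.94 to 34.1). FOS was found in 29 of 451 CT nuclei (6.43%, 4.35 to 9.10%) and 4 of 325 PD nuclei (1.23%, 0.337 to 3.12%). NR4A3 had 27 and 22 UMIs in the caudate (1.14-fold lower, 0.626 to 2.10) but 19 and 5 in the putamen (2.95-fold lower, 1.07 to 10.1). The caudate value rested on the clustering: the PD to CT ratio of NR4A3, 0.876, was 4.52 in a clustering at resolution 2.0 and 4.31 without the PTHLH cluster described next. That cluster held 98 of the 118 caudate member UMIs of CT and 33 of the 44 of PD. The NR4A3 ratios without it therefore rest on few UMIs, and no interval was computed for them. In the putamen FOS was counted 9 times in CT and 1 time in PD, and NR4A1 21 and 9 times. That NR4A1 ratio, 0.552 (0.222 to 1.26), was 2.45 at resolution 2.0, 2.51 without the PTHLH cluster and 1.85 within sub-clusters. In the putamen the PTHLH cluster held 49 of the 62 member UMIs of CT and 10 of the 20 of PD. These NR4A1 values, which leave it out, also rest on few UMIs. No single member reached 50 UMIs in interneuron-like nuclei, the minimum at which 1.41% of putamen genes were 2-fold lower in PD and 1.1% higher, and 2.11% and 0.574% of caudate genes.

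One cluster of interneuron-like nuclei carried most of this. It expressed PTHLH (70.7 and 38.8 CPM in putamen CT and PD, 33.7 and 34.4 CPM in caudate), which marks a group of striatal interneurons related to parvalbumin cells, and high GAD1, the GABA-synthesising enzyme (558 to 776 CPM). Its members were at 128 CPM in 85 CT nuclei and 48.5 CPM in 47 PD nuclei of the putamen (ratio 0.378, 0.171 to 0.755), and at 157 CPM in 177 CT nuclei and 56.8 CPM in 131 PD nuclei of the caudate (0.361, 0.236 to 0.540). It held 38 of the 42 caudate FOS UMIs of CT and 3 of the 4 of PD. The TAC3, NPY and cholinergic clusters held lower levels, with wide intervals. In the caudate all 3 had lower values in PD, on too few UMIs to read a direction. There the TAC3 cluster held 10 member UMIs in CT and 6 in PD, the NPY cluster 3 and 2, and the cholinergic cluster 6 in CT. A smaller group of the class, 6 CT and 3 PD nuclei in the putamen and 3 and 11 in the caudate, was too small to compare. Of the 62 putamen CT UMIs, the PTHLH cluster held 49 and the TAC3, NPY and cholinergic clusters 3 each. The remaining ones lay in the 6 nuclei of the smaller group, which stay in the ratios without the PTHLH cluster. Nuclei with TAC3, 72 in CT and 61 in PD in the putamen and 191 and 135 in the caudate, had members at 13.2 and 12.2 CPM and at 22.1 and 14.0 CPM. Nuclei with NPY, SST and NOS1 had 17.1 and 18.2 CPM in the putamen and 16.3 and 10.7 CPM in the caudate, and cholinergic (CHAT) nuclei 18.3 and 22.6 CPM in the putamen and 34.0 and 18.2 CPM in the caudate. Without the PTHLH cluster the ratio of PD to CT was 0.827 in the putamen and 0.593 in the caudate. In a clustering at resolution 2.0 the same nuclei were called mixed and dropped out of the class, and the ratios were 1.002 and 0.595. Within sub-clusters they were 1.32 and 0.638. No sub-cluster of the PTHLH cluster had 20 nuclei in both libraries of a region, so this setting leaves that cluster out as well. The putamen value covers 87 CT and 91 PD nuclei. They lay in clusters with 3 member UMIs each in CT and 2, 2 and 6 in PD. Most CT and PD nuclei of the PTHLH cluster lay in different sub-clusters: of its caudate nuclei, 137 of CT and 5 of PD in one, and 8 and 104 in another. Median depth in the caudate cluster was 3385 UMIs in CT and 4062 in PD. Its summed SPN markers were at 1315 and 1413 CPM and its oligodendrocyte markers at 1097 and 1067 CPM. In the putamen cluster microglia or macrophage markers were at 209 CPM in CT and 87.3 CPM in PD, and their part in the result was not tested.

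**Figure D4:**
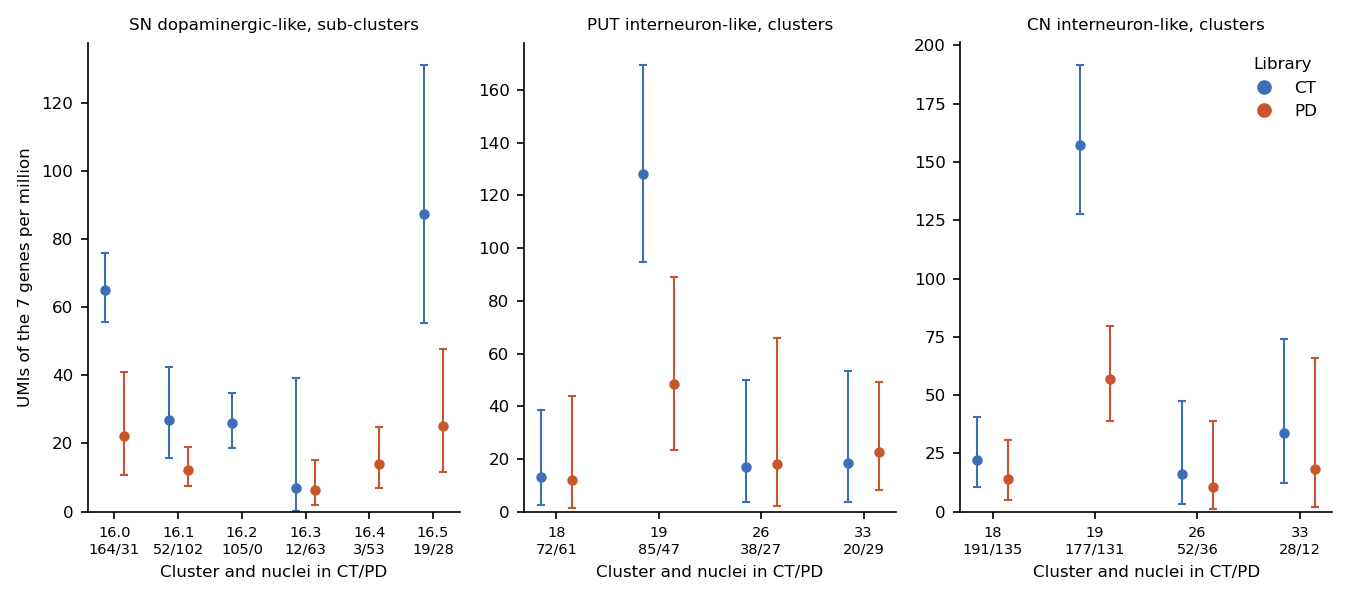
Summed level of the 7 genes (y axis, CPM) in sub-clusters of SN dopaminergic neuron-like nuclei and in clusters of PUT and CN interneuron-like nuclei (x axis, with the number of nuclei in CT and PD), CT in blue, PD in red-brown, with 95% Poisson intervals; groups under 10 nuclei are not drawn. Cluster 19, which expresses PTHLH, stands at 128 CPM in PUT CT and 157 CPM in CN CT, and clusters 18, 26 and 33 reach at most 34.0 CPM.

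Some members were found more often in nuclei that also held another member than in the rest. Nuclei with 2 or more different members were few: 46 of 355 CT and 3 of 277 PD dopaminergic neuron-like nuclei. In direct and indirect SPN-like nuclei they were 0.313% to 0.949% of a class and library. Not every pair showed it: in caudate eccentric SPN-like nuclei of PD, NR4A3 was found in 0 of 18 nuclei with NR4A1 and 6 of 183 without. Of the 51 CT dopaminergic neuron-like nuclei with a FOS UMI, 37.3% also had NR4A1 (interval 24.1 to 51.9%), against 14.5% of the 304 without FOS (10.7 to 18.9%). Median depth was 15658 UMIs in the first and 14136 in the second group. For NR4A3 the shares were 27.5% and 15.1%, with overlapping intervals. NR4A3 was found in 33.3% of the 63 nuclei with NR4A1 (22.0 to 46.3%) and 13.4% of the rest (9.67 to 17.8%). In caudate interneuron-like nuclei of CT, NR4A3 was found in 34.8% of the 23 nuclei with NR4A1 (16.4 to 57.3%) and 2.80% of the rest (1.46 to 4.85%), at median depths of 4523 and 2848 UMIs. The PTHLH cluster held 98 of the 118 member UMIs of this class and library. These shares pool clusters and sub-clusters of unlike level, and the part of such differences was not tested. FOSB and EGR1, the members most widely seen in SPN-like nuclei, did not show this in the direct pathway: EGR1 was found in 4.17% of putamen CT nuclei with FOSB (0.868 to 11.7%) and 3.40% of those without (2.57 to 4.42%). In indirect SPN-like nuclei of the same library the shares were 10.7% (4.72 to 19.9%) and 4.94% (3.99 to 6.04%), with overlapping intervals, and in putamen PD they were 1.69% of 59 nuclei with FOSB (0.0429 to 9.09%) and 3.34% of the rest (2.50 to 4.37%).

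**Figure D5:**
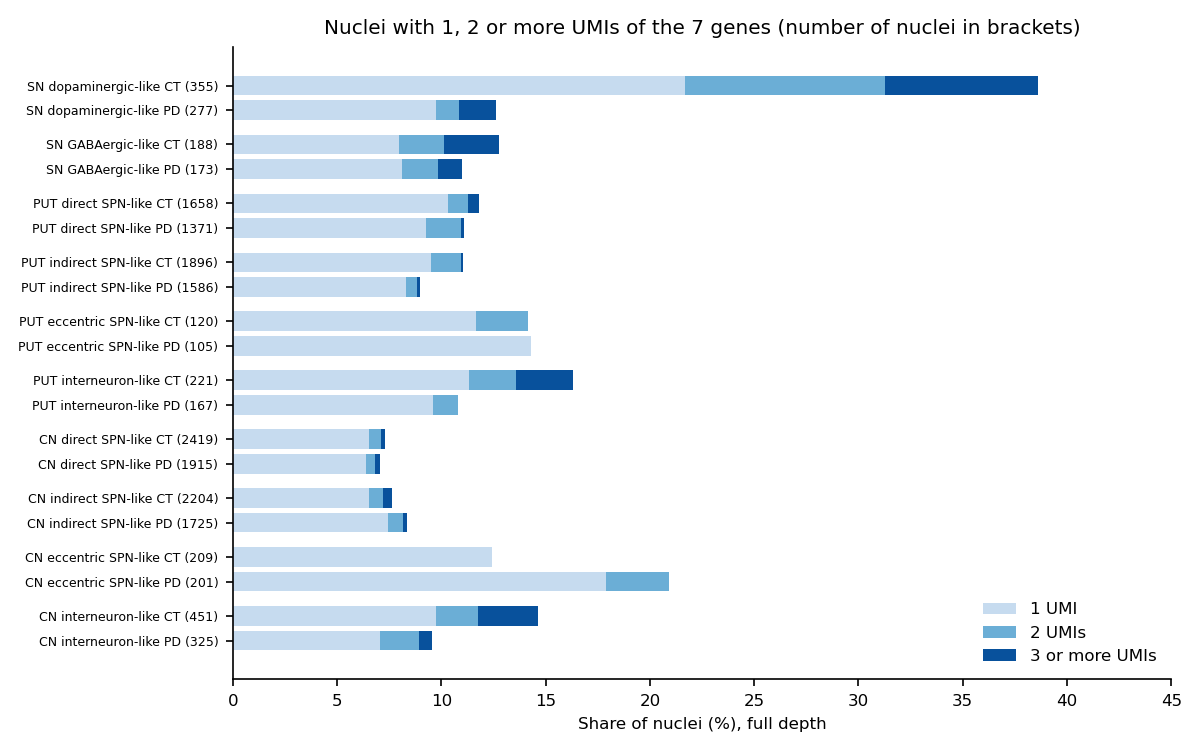
Share of nuclei (x axis, percent, at full depth) with 1, 2 or at least 3 UMIs of the 7 genes, stacked, in each class and library (y axis, number of nuclei in brackets). The 355 dopaminergic neuron-like nuclei of CT have the longest bar at 38.6%, against 12.6% in PD, at near equal depth.

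Other genes of the pathway were read from 4 fixed lists, over genes whose UMIs in the CT and PD libraries of a class summed to 50 or more. Of 25 other rapidly induced genes, 4 were measured in SN dopaminergic neuron-like nuclei, and 3 were lower in PD, with a median log2 ratio of -0.50 against 0.03 over all genes, of which 46.1% were lower. BHLHE40, a clock repressor, was at 15.6 CPM in CT and 7.99 CPM in PD (ratio 0.512, 0.329 to 0.778). NR4A2, which maintains dopaminergic identity, was at 74.1 and 49.7 CPM (0.670, 0.563 to 0.797). KLF6 went the other way, with 7.52 and 14.0 CPM (1.86, 1.22 to 2.86). In caudate direct SPN-like nuclei 5 of 7 measured genes of this list were lower (median -0.47 against -0.14 over all genes), and in indirect 7 of 8 (-0.39 against -0.15), beside 67.8% and 68.5% of all genes. In indirect these included MAFF at 24.1 and 8.64 CPM (0.359, 0.278 to 0.461) and NPAS4, a neuron-restricted activity factor, at 4.17 and 0.982 CPM (0.236, 0.105 to 0.480). In the putamen all measured genes of the list were lower in direct (5 of 5, median -0.21) and indirect SPN-like nuclei (7 of 7, median -0.45), against a median of -0.05 over all genes, of which 56.7% and 56.5% were lower.

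Late activity genes, which encode secreted and synaptic effectors, gave no common direction. In SN dopaminergic neuron-like nuclei 6 of 8 measured genes were lower and the median was -0.10, against 0.03 and 46.1% lower over all genes. DUSP4, a phosphatase that limits ERK signalling, was at 11.9 and 4.25 CPM (0.358, 0.197 to 0.620), and RGS4 at 6.21 and 17.2 CPM (2.78, 1.81 to 4.34). In putamen direct SPN-like nuclei 7 of 8 measured genes were lower (median -0.31 against -0.05, with 56.7% of all genes lower). The 1 higher gene was HOMER1, a postsynaptic scaffold (463 and 824 CPM, ratio 1.78, 1.71 to 1.85). In caudate indirect SPN-like nuclei 6 of 10 were lower (median -0.33 against -0.15, with 68.5% of all genes lower). HOMER1 was again higher there, at 367 and 562 CPM (1.53, 1.47 to 1.60). In SN GABAergic neuron-like nuclei all 4 measured genes were lower (median -0.12 against -0.02, with 53.1% of all genes lower). Of these, BDNF was at 50.1 and 14.8 CPM (0.295, 0.185 to 0.458). In caudate interneuron-like nuclei the 6 measured genes had a median of -0.12 against -0.06 over all genes, from NPTX2 (0.645, 0.357 to 1.14) to SORCS3 (1.18, 0.884 to 1.56).

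Of 25 upstream regulators, 17 to 24 were measured in each class, of which 9 to 14 were higher in PD. In SN dopaminergic neuron-like nuclei 11 were higher and 11 lower, with a median of 0.01 against 0.03 over all genes, and MRTFB, a cofactor of SRF, was at 219 and 154 CPM (0.704, 0.638 to 0.777). MEF2C was among the lowest of this list in all 8 striatal comparisons, for instance 214 against 99.0 CPM in caudate indirect SPN-like nuclei (ratio 0.463). Heat shock genes, which respond to tissue handling and protein stress, were higher in PD in dopaminergic neuron-like nuclei for 8 of 9 measured genes (median 0.25 against 0.03, with 46.1% of all genes lower), HSPD1 being at 32.7 and 51.4 CPM (1.57, 1.28 to 1.93). They were lower for 9 of 9 in both caudate SPN-like pathways (medians -0.54 and -0.37 against -0.14 and -0.15, with 67.8% and 68.5% of all genes lower), for 8 of 9 in both putamen pathways (medians -0.24 and -0.24 against -0.05, with 56.7% and 56.5% lower), and for 6 of 7 in caudate interneuron-like nuclei (median -0.35 against -0.06, with 58.1% lower). Their part in the members' lower level was not tested.

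The genes whose level most resembled that of the members over the 20 pairs of class and library were NHP2 (Pearson r = 0.72 between log2(CPM + 1) and the mean z-score of the members), LRRC58 (0.71), CNBP (0.69), NPAS4 (0.68) and FOSL2 (0.67), of 13091 genes ranked. These pairs share libraries, depth and free RNA, so the values are descriptions. NPAS4 and FOSL2 are themselves rapidly induced: NPAS4 was at 7.71 CPM in CT and 0.999 CPM in PD in SN dopaminergic neuron-like nuclei, and at 11.8 and 1.49 CPM in caudate interneuron-like nuclei. Among the members, FOS followed NR4A3 (r = 0.77) and NR4A1 (0.64) over these pairs, whereas FOSB did not follow FOS (-0.39) or NR4A1 (-0.36) and went more with EGR1 (0.41).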

How the data were processed

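The deposited matrices hold UMI counts per gene and barcode, with no normalization; per the file headers and the submitters' processing notes the authors used Cell Ranger 7.0.1. Those notes name hg38, whereas the gene identifiers are Ensembl's for Macaca fascicularis, of a release not given in the sources used here. The extract protocol names Macaca mulatta. A matrix's group was known from its file name alone.

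Barcodes were kept with 500 or more genes, up to 5% mitochondrial UMIs and a Scrublet doublet score up to 0.25, a score that 1.93% to 5.98% of barcodes exceeded. Free RNA was not subtracted. Counts were clustered with scanpy 1.11.5 (2000 variable genes, 30 components, 15 neighbours, Leiden resolution 1.0, then sub-clusters at 0.5), over all libraries without integration. The members and the other 4 lists were left out of the variable genes. A unit took the class whose markers were highest relative to the highest unit; units led by markers of another class, mixed or too small stayed out of the classes.

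UMIs were summed per class and library. Levels have exact Poisson intervals, shares Clopper-Pearson intervals and ratios conditional binomial intervals (95%), which cover counting error only. The limit given for 0 nuclei is 3 counts of the total. Genes needed at least 50 UMIs over both libraries to be counted as past 2-fold, with 0.5 UMI added to each. On Poisson counts simulated from the SN dopaminergic class, 97.0% of intervals of 99 genes changed to 0.25 held the true ratio, and 95.8% of 10440 unchanged genes. These draws follow the model that the intervals assume and leave out the gathering of UMIs in single nuclei. They therefore check the calculation, and cannot show how well the intervals cover for the real counts. The members and lists were chosen with earlier results of these data known. All 7 members are named in every class; of each other list the 2 highest and 2 lowest genes could be named. Of the 30, 20, 25 and 15 genes in the lists of other rapidly induced, late activity, upstream and heat shock genes, 25, 18, 25 and 12 were in the annotation. No sequence is shown. Some items of the labels are not reported here.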

Additional observations from a re-analysis of the deposited data

How the results depend on the processing

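No paired analysis was possible because no file maps nuclei to the labelled replicates. No replicate could be left out either, and differences have counting error alone. Ratios of PD to CT for the 7 genes together were recomputed under 9 to 11 other settings per class, 94 of 103 values lying within the counting interval of the reported ratio. The range was 0.226 to 0.381 in SN dopaminergic neuron-like nuclei and 0.561 to 0.811 in caudate indirect SPN-like nuclei. Thinning to 2000 UMIs gave 0.646 in putamen indirect and 0.561 in caudate indirect SPN-like nuclei, and levels of 8.77 CPM in SN GABAergic neuron-like and 18.2 CPM in putamen indirect SPN-like nuclei of PD. Within sub-clusters the ratio was 0.283 in caudate direct SPN-like and 0.638 in caudate interneuron-like nuclei, and 1.32, a turn of direction, in putamen interneuron-like nuclei. Resolution 2.0 gave 1.002 in putamen and 0.595 in caudate interneuron-like nuclei, and NR4A3 turned to 1.40 in the putamen and 4.52 in the caudate and NR4A1 to 2.45 in the putamen; here the PTHLH cluster left the class. Without that cluster, a setting chosen after seeing the data like the 4 others added, the ratios were 0.827 and 0.593, NR4A3 was at 4.31 in the caudate and NR4A1 at 2.51 in the putamen (1.85 within sub-clusters). The single-gene ratios without the PTHLH cluster rest on few UMIs and have no interval. Beyond the nuclei that left a class, the cause of these changes was not tested. No value within sub-clusters could be had for eccentric SPN-like nuclei, and none at resolution 2.0 for SN GABAergic neuron-like nuclei. With a minimum of 10 UMIs, members at least 2-fold lower were 4 of 4 in SN dopaminergic neuron-like nuclei, 3 of 6 against 1 of 4 in caudate direct SPN-like nuclei, 2 of 4 in caudate and 2 of 3 in putamen interneuron-like nuclei, and 1 of 2 each in SN GABAergic and putamen eccentric neuron-like nuclei; the other member of the latter was 2-fold higher. No share of all genes past 2-fold was computed at the minimum of 10 UMIs, so these counts have no background to be read against. For single members 397 of 416 values lay within the interval. Depth limits JUNB and ARC everywhere, and every member in the eccentric and GABAergic classes.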
